A study of Mus musculus with 6 samples.

Results

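The 10 genes described here encode transcription factors that silence or switch globin genes, or that restrain and time red cell maturation: Bcl11a, Sox6, Zbtb7a, Ikzf1, Klf3, Nfix, Bach1, Mafk, Mafg and Foxo3. They were taken by symbol from the 25628 gene symbols of a deposited count table, and all 10 were present and passed the filter on low counts, as did 14158 genes in all. The first group, labelled Dox_Treated, is TgSpi1 mouse erythroleukaemic cells in which doxycycline given for 48 h switched on an shRNA against Spi1. The other group, labelled Dox_Untreated, is the same cells without doxycycline. Both groups were grown with erythropoietin, and both overexpress Spi1 (the gene of the transcription factor PU.1) and carry the inducible shRNA. Each group has 3 libraries of poly(A) RNA, numbered 1 to 3, and all 6 titles carry the same number, 722, which the labels do not explain. No library of cells given doxycycline without the shRNA was analysed here, so effects of the drug and of the Spi1 shRNA cannot be told apart. In bulk RNA, fewer cells of a type and less RNA per cell cannot be told apart either.

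Adult red cells make adult globin because embryonic and fetal-type globin genes are held silent by repressors that bind the globin loci or their control regions. BCL11A, SOX6 and ZBTB7A (also called LRF) are the best known of these, and IKZF1 (Ikaros) works with chromatin remodellers in the same switch. KLF3 binds the same CACCC boxes as the erythroid activator KLF1 and represses through the corepressor CtBP, while BACH1 pairs with the small MAF proteins MAFK and MAFG to repress globin and antioxidant genes until heme releases it. NFIX has been linked to fetal-type globin silencing in human cells, and FOXO3 drives antioxidant and maturation genes in late erythroblasts.

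Total counts lay between 78926663 in an untreated library and 101276319 in a doxycycline library. Levels are given in CPM, counts scaled to library size with TMM factors. Spi1 stood at 84.8, 80.4 and 62.1 CPM in doxycycline libraries 1, 2 and 3, against 415, 353 and 329.6 CPM in untreated libraries 1, 2 and 3. All 10 genes used as defining erythroid markers were above 1 CPM on average. Their summed level was 4473 to 6430 CPM in doxycycline libraries and 3767 to 4780 CPM in untreated ones. The largest part was Tfrc, the transferrin receptor gene, which averaged 3099 CPM with doxycycline and 2101 CPM untreated. A mean above 1 CPM does not set erythroid genes apart, since only 2 of 9 megakaryocyte markers averaged below it.

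Per kilobase of exon, Ikzf1 was the most abundant of the 10 factors and Sox6 the least in both groups. The length used joins all annotated exons of a gene, not those of the transcripts expressed here, and the order depends on it. With doxycycline, for example, Bcl11a averaged 164 CPM over 13175 exon bases and Mafk 66.6 CPM over 3901. Ikzf1 averaged 73.5 ± 8.47 CPM per kb with doxycycline and 65.7 ± 7.30 CPM per kb untreated (SD, n = 3 each). Bach1 came next at 26.5 ± 1.96 and 20.8 ± 2.93 CPM per kb, and then Mafk at 17.1 ± 2.43 and 16.9 ± 0.933 CPM per kb (doxycycline first, SD, n = 3 each). Sox6 averaged 1.23 ± 0.296 CPM per kb with doxycycline and 0.898 ± 0.166 CPM per kb untreated, below Nfix in both groups. In the untreated libraries Bcl11a, Mafg, Zbtb7a, Foxo3 and Klf3 followed Mafk in that order. Neighbours among these 5 overlapped, while Bcl11a lay apart from Mafk above it and Klf3 apart from Nfix below it. With doxycycline Foxo3 stood 4th and Klf3 6th, where untreated they stood 7th and 8th. From Mafk down to Zbtb7a every neighbouring pair of doxycycline ranges overlapped, so the order within this middle set is not settled by 3 libraries a group.

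Klf3, Bach1 and Foxo3 were called higher with doxycycline once libraries were paired by replicate number, and without pairing DESeq2 alone called Klf3. With the group as the only term, edgeR's quasi-likelihood test (Benjamini-Hochberg adjusted p under 0.05 over 14158 genes) called none of the 10 higher and none lower, where 0.417% of all genes tested were called higher and 2.18% lower. At an unadjusted p under 0.05 there were 2, Klf3 and Bach1, both higher, where 5.86% of all genes were higher at that level. DESeq2 called 1, Klf3, where it called 1.94% of all genes higher and 4.19% lower. With the replicate number as a block, edgeR called 3 of the 10 higher and none lower, where 10.3% of all genes tested were called higher and 15.6% lower. At an unadjusted p under 0.05 this fit held 4, all higher, beside 17.1% of all genes. DESeq2 with the block called 4 higher and none lower, adding Sox6, where it called 11.8% of all genes higher and 11.3% lower. The median log2 fold change of the 10 factors was 0.16 without the block and 0.14 with it, beside 0.01 and 0.00 over all genes tested. All doxycycline libraries lay above all untreated ones for Klf3 and Bach1 and for no other factor, and no factor lay wholly below. Of all genes tested, 8.88% had their doxycycline libraries wholly above and 11.7% wholly below. Within pairs of equal number, 6 of the 10 were higher with doxycycline in every pair (Klf3, Bach1, Foxo3, Sox6, Ikzf1 and Nfix) and none was lower in every pair, where 28.0% and 29.4% of all genes were.

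**Figure D1:**
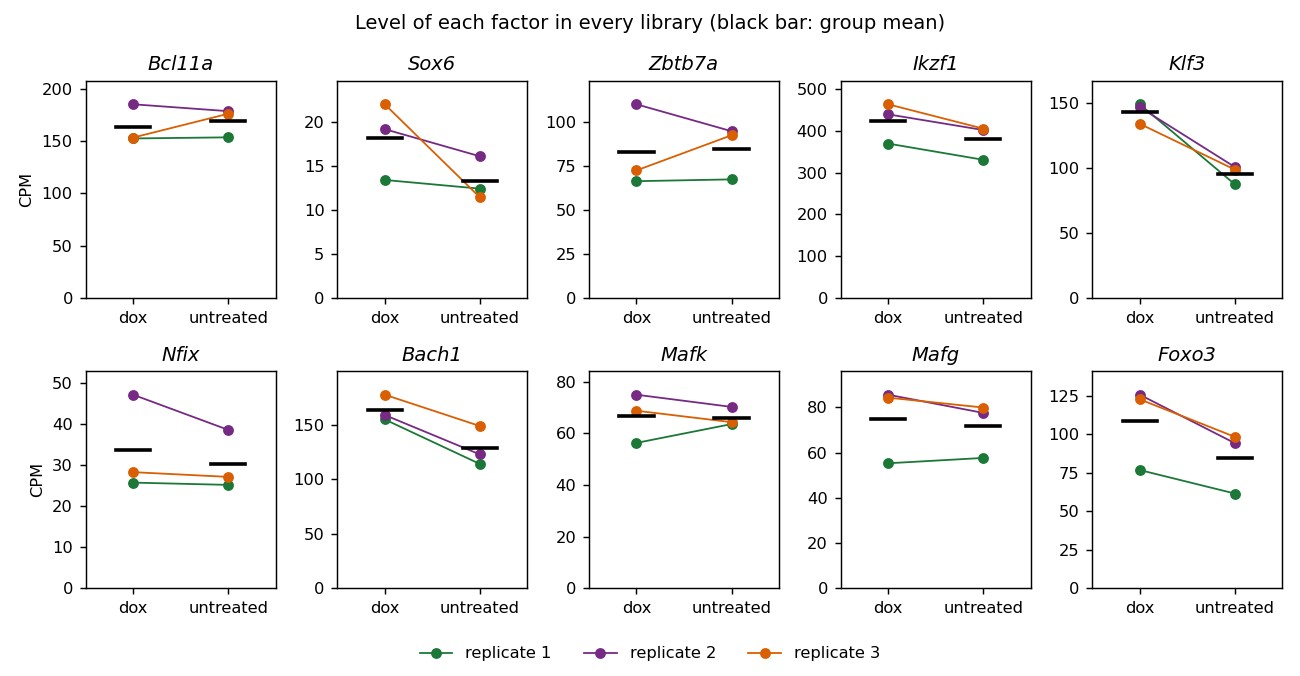
CPM of each factor in every library, with doxycycline on the left and untreated on the right, a line joining libraries of equal replicate number and a black bar at each group mean. The groups are apart for Klf3 and Bach1, while for Foxo3 the 3 lines slope alike and library 1 lies low in both groups.

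Klf3, the CACCC-binding repressor that also acts on genes of other lineages, had the clearest difference. It stood at 149, 147 and 134 CPM in doxycycline libraries 1, 2 and 3, against 87.3, 100.7 and 98.7 CPM in untreated libraries 1, 2 and 3. All 3 doxycycline libraries were above all 3 untreated ones, and the libraries within a group lay close together. Without the block its log2 fold change was 0.58 (SE 0.13, adjusted p = 0.065 by edgeR), which missed the threshold, and with it 0.58 (SE 0.093, adjusted p = 0.0013). DESeq2 without the block gave 0.65 (adjusted p = 0.0057). Within pairs 1, 2 and 3 the log2 ratio was 0.77, 0.54 and 0.44. With the block the call held when both libraries of any 1 number were left out (adjusted p of at most 0.044). The gene (ENSMUSG00000029178.14, chromosome 5 from 64803388 to 64832901, plus strand, GRCm38) shares 404 exon bases with Gm20033 on the other strand, and the library kit does not mark strand.

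Bach1, the heme-sensing repressor, stood at 155, 159 and 178 CPM in doxycycline libraries 1, 2 and 3, against 114, 123 and 149 CPM in untreated libraries 1, 2 and 3. The lowest doxycycline library was above the highest untreated one, by a small margin. In edgeR it had a log2 fold change of 0.35 (SE 0.15, adjusted p = 0.32) without the block and 0.36 (SE 0.085, adjusted p = 0.012) with it. Within pairs 1, 2 and 3 it was 0.44, 0.37 and 0.25. Leaving out both libraries of number 1 ended the call (0.33, adjusted p = 0.15). Bach1 lies on chromosome 16 from 87698945 to 87733346 (ENSMUSG00000025612.5, plus strand, GRCm38) and no annotated gene overlaps it.

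Foxo3, the forkhead factor that AKT keeps out of the nucleus when erythropoietin signals, stood at 76.8, 125.7 and 123 CPM in doxycycline libraries 1, 2 and 3. The untreated libraries 1, 2 and 3 had 61.5, 94.2 and 98.3 CPM. The groups overlapped, since doxycycline library 1 was below untreated libraries 2 and 3, and number 1 was lowest in both groups. Within pairs 1, 2 and 3 the log2 ratio was 0.32, 0.42 and 0.32, the most even of the 3 factors called. By edgeR the difference was 0.36 on the log2 scale (SE 0.25, adjusted p = 0.60) without the block and 0.35 (SE 0.084, adjusted p = 0.013) with it. The block call was lost without number 1 (0.38, adjusted p = 0.10) and without number 2 (0.32, adjusted p = 0.058). Foxo3 lies on chromosome 10 from 42181841 to 42276755 (ENSMUSG00000048756.11, minus strand, GRCm38), and no annotated gene overlaps it.

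The windows around the RefSeq start sites of these 3 genes are shown because they are the factors called in a comparison in which Spi1 RNA was low. Each runs 250 bases before to 50 after the start, 5′ to 3′ on the gene's strand (RefSeq, GRCm38.p6). Capitals mark GAGGAA (the core of PU.1 sites), the GATA spellings (AGATAA or the same ending in G, and TGATAA or the same ending in G) and CACCC (bound by KLF factors), each on either strand. They lie at chr5:64803271-64803570 for Klf3 (plus strand), chr16:87698704-87699003 for Bach1 (plus strand) and chr10:42276646-42276945 for Foxo3 (minus strand).
Klf3: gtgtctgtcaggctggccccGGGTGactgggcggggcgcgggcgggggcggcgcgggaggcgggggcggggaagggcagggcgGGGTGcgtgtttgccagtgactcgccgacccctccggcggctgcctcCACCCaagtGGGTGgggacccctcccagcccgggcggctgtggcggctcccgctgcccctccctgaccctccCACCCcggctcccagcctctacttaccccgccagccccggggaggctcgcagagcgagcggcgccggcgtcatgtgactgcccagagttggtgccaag
Bach1: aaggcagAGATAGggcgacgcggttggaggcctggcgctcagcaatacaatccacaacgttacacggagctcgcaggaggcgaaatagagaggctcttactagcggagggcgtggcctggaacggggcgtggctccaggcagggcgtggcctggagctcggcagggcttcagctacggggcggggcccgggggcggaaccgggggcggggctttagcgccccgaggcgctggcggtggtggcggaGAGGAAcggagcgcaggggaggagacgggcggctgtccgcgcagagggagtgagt
Foxo3: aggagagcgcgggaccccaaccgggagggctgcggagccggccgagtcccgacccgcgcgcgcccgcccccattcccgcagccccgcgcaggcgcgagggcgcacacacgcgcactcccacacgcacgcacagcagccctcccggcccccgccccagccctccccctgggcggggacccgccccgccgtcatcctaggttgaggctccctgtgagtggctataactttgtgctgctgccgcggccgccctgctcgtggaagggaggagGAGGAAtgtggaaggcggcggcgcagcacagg

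The 3 windows had little in common beyond a high GC content of 76.7% for Klf3, 69.7% for Bach1 and 75.0% for Foxo3, beside a median of 52.7% over the 32851 windows of the table. Windows of the other factors ran from 36.7% (Sox6) to 81.3% (Ikzf1), so a high GC content was not particular to these 3. The Klf3 window held 5 CACCC matches and no GAGGAA or GATA match. Bach1 and Foxo3 held 1 GAGGAA match each, from base 246 and base 269 of the window, and Bach1 held 1 GATA match from base 8. Over the 19 windows of the 10 factors, GAGGAA occurred in 5, belonging to Nfix, Foxo3 and Bach1. Over all windows 28.3% held it, 29.8% held a GATA spelling and 57.5% held CACCC. GATA spellings occurred in 4 of the 19 windows (Sox6, Zbtb7a and Bach1) and CACCC in 12, those of 7 factors. TGCTGAG, a part of MAF sites, occurred in 3 (Mafk, Sox6 and Bach1) against 7.84% of all windows, and TGTTTAC, a FOXO site, in 0 against 3.65%. A match in these letters is a description of the window and not a bound site.

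Sox6, Ikzf1 and Nfix were higher with doxycycline within every pair and passed neither edgeR fit. Sox6, a SOXD factor that binds with BCL11A, stood at 13.4, 19.2 and 22.0 CPM in doxycycline libraries 1, 2 and 3, against 12.4, 16.1 and 11.4 CPM in untreated libraries 1, 2 and 3. Its within-pair log2 ratios of 0.11, 0.25 and 0.95 were the most uneven of the 10 factors, and the third pair carried most of the difference. On the log2 scale edgeR gave 0.45 (SE 0.24, adjusted p = 0.44) without the block and 0.44 (SE 0.16, adjusted p = 0.069) with it, and 0.18 with the block once number 3 was left out. DESeq2 with the block called it (0.50, adjusted p = 0.019), and so did edgeR with the block once number 2 was left out (0.53, adjusted p = 0.024).

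Ikzf1, the lymphoid and erythroid zinc finger factor Ikaros, stood at 369.9, 440.1 and 464 CPM in doxycycline libraries 1, 2 and 3, against 331, 402 and 406 CPM in untreated libraries 1, 2 and 3. Every pair differed by nearly the same amount (log2 0.16, 0.13 and 0.19), and number 1 was lowest in both groups. With the block its log2 fold change was 0.16 (95% interval -0.03 to 0.35, unadjusted, edgeR adjusted p = 0.19). Nfix stood at 25.8, 47.2 and 28.3 CPM in doxycycline libraries 1, 2 and 3, against 25.2, 38.6 and 27.2 CPM in untreated libraries 1, 2 and 3. Number 2 was high in both groups and exceeded every other library. With the block the log2 fold change of Nfix was 0.13 (95% interval -0.10 to 0.35, adjusted p = 0.39).

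For the central silencers Bcl11a and Zbtb7a and for both small MAF genes no difference passed. The intervals of the paired fit rest on the pairing by number, and those without the block were wider. Bcl11a stood at 152, 185 and 153 CPM in doxycycline libraries 1, 2 and 3, against 154, 179 and 176 CPM in untreated libraries 1, 2 and 3. The groups overlapped throughout, and with the block the 95% interval of the change ran from -15.9% to 10.5%. Zbtb7a stood at 66.4, 110.1 and 72.5 CPM in doxycycline libraries 1, 2 and 3, against 67.4, 94.8 and 92.5 CPM in untreated libraries 1, 2 and 3. Its pairs pointed different ways (log2 -0.02, 0.22 and -0.35), with a block interval from -18.9% to 14.7%. On the log2 scale the interval of Bcl11a was -0.25 to 0.14 with the block and -0.38 to 0.28 without it. That of Zbtb7a was -0.30 to 0.20 with the block and -0.58 to 0.52 without it. The block adjusted p was 0.70 for Bcl11a and 0.77 for Zbtb7a by edgeR.

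Mafk stood at 56.3, 74.9 and 68.7 CPM in doxycycline libraries 1, 2 and 3, against 63.5, 70.2 and 64.3 CPM in untreated libraries 1, 2 and 3. The untreated values lay inside the doxycycline range. With the block the change had a 95% interval from -13.3% to 16.2% (edgeR adjusted p = 0.98). Mafg stood at 55.3, 85.6 and 84.3 CPM in doxycycline libraries 1, 2 and 3, against 57.6, 77.5 and 79.9 CPM in untreated libraries 1, 2 and 3. Library 1 was low in both groups, and the block interval ran from -9.59% to 19.1% (adjusted p = 0.70). On the log2 scale the interval of Mafk was -0.21 to 0.22 with the block and -0.34 to 0.37 without it. That of Mafg was -0.15 to 0.25 with the block and -0.45 to 0.58 without it. These intervals are not adjusted for the number of genes. Reads of exons that overlap on the other strand cannot be assigned by strand here. Mafk shares 169 such exon bases with Tmem184a, Bcl11a 316 with 4930538E20Rik, and Nfix 137 with G430095P16Rik and 4 with Lyl1. Mafg shares 124 exon bases with Sirt7 on the same strand, which strand would not tell apart in any library.

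**Figure D2:**
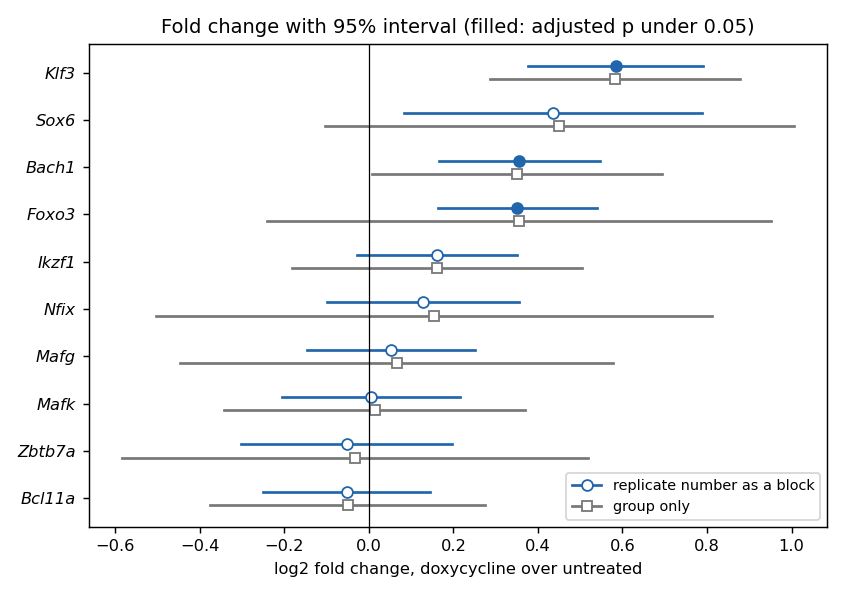
Log2 fold change of each factor, doxycycline over untreated, with its unadjusted 95% interval, from the fit that blocks on replicate number (circles) and from the group-only fit (squares). Filled symbols passed an adjusted p of 0.05: Klf3, Bach1 and Foxo3 with the block and none without it.

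Replicate number went with most of the spread of 7 of the 10 factors, as it did for the median gene tested. The labels do not give the meaning of the number. Of the sum of squares of log2 CPM over the 6 libraries, the number took 96.2% for Mafg, 93.5% for Nfix, 81.4% for Zbtb7a, 76.1% for Mafk, 76.0% for Foxo3, 74.5% for Bcl11a and 73.8% for Ikzf1. The median gene tested had 61.7% by number and 19.3% by group. The number divides the libraries into 3 sets and the group into fewer, so the number takes a larger share even where neither has an effect. Shares by number and by group are therefore to be read against the median gene and not against each other. Klf3 had 93.0% by group and 1.81% by number, and Bach1 had 65.4% by group and 31.5% by number. For Sox6 the shares were 41.3% by group, 29.8% by number and 28.9% by neither. The mean of number 2 over both groups exceeded that of number 1 for every factor. The highest of the 3 number means was 1.68 times the lowest for Nfix, 1.60 times for Foxo3 and 1.53 times for Zbtb7a, but 1.06 times for Klf3.

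**Figure D3:**
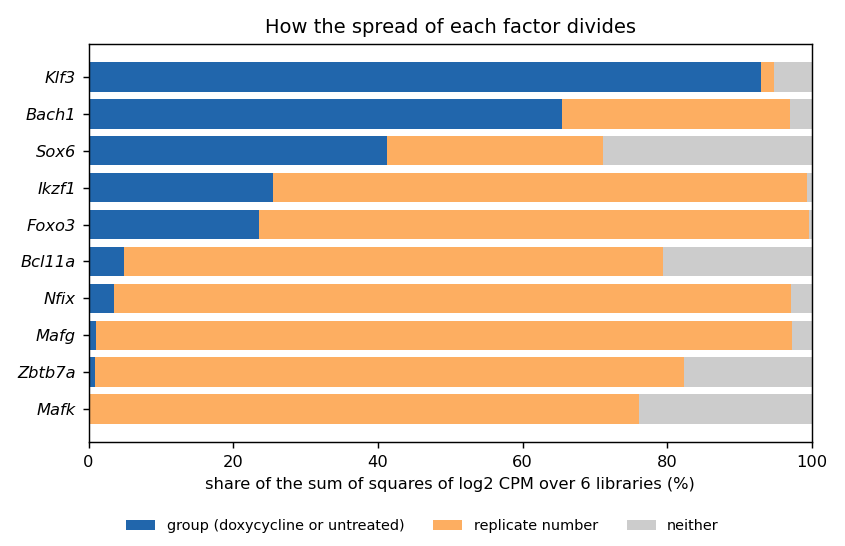
Share of the sum of squares of log2 CPM over 6 libraries that goes with the group, with the replicate number and with neither, for each factor. The group takes 93.0% for Klf3 and 65.4% for Bach1, and the number takes 73.8% or more for the other factors apart from Sox6.

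The genes whose course over the 6 libraries was nearest to that of the 3 factors with the smallest p without the block were looked up among 9291 other genes of at least 5 CPM. Likeness was the root mean square difference of log2 CPM after centring each gene on its own mean. Nearest to Klf3 were Yod1 (0.062), Nckap1 (0.064) and Mpp6 (0.069). Nearest to Bach1 were 6030458C11Rik (0.035), Tigd2 (0.050) and Mtbp (0.050), and nearest to Sox6 were Sirt2 (0.11), Sel1l (0.12) and Samd11 (0.13). Among the 10 factors themselves the closest courses were those of Bcl11a and Mafk (0.10), then of Ikzf1 and Mafk (0.13). With so many genes and 6 libraries, near matches occur for most patterns, so these names are a description.

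Relatives of the 10 factors in the same families passed in a few cases. In the gene lists that follow, rose and fell refer to edgeR, and shares with the block are to be read against the 10.3% higher and 15.6% lower over all genes. Of 24 listed relatives 15 were tested. None passed in edgeR without the block, where DESeq2 called Ikzf2 lower. With the block 5 fell (33.3%) and none rose, and DESeq2 called 4 lower and 2 higher (Zbtb7b and Ikzf5), with an edgeR median log2 fold change of -0.05. The Ikaros relatives Ikzf2 (Helios) and Ikzf3 (Aiolos) were among those that fell with the block. Ikzf2 averaged 2.24 ± 1.14 CPM with doxycycline and 11.5 ± 5.39 CPM untreated (SD, n = 3 each; log2 fold change -2.37, SE 0.14, edgeR adjusted p = 3.4e-06 with the block and 0.053 without it). Ikzf3 averaged 3.59 ± 1.71 CPM with doxycycline and 7.56 ± 3.25 CPM untreated (SD, n = 3 each; -1.10, SE 0.14, block adjusted p = 3.0e-04). Nfe2, the haematopoietic partner of small MAF proteins that activates globin genes, was also lower with the block, at 92.0 CPM with doxycycline and 122 CPM untreated (-0.41, block adjusted p = 0.0066). Sox5 and Bach2 also fell with the block, both under 1 CPM. Klf1, the activator that KLF3 competes with, stood at 200.3 and 182 CPM (doxycycline first) and passed neither fit.

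Of 27 corepressor genes through which these repressors work, Mbd2, the methyl-CpG reader of NuRD, was the one that passed in edgeR without the block, and DESeq2 also called Fhl3. Mbd2 stood at 115 ± 18.7 CPM with doxycycline and 218 ± 9.50 CPM untreated (SD, n = 3 each; log2 fold change -0.92, SE 0.15, adjusted p = 0.027). With the block 5 fell (18.5%) and 2 rose (7.41%), shares near those of all genes. Among the 5, the KLF3 coregulator Fhl3 averaged 3.55 ± 1.27 CPM with doxycycline and 10.4 ± 4.12 CPM untreated (-1.54, SE 0.13, block adjusted p = 2.7e-05), and the CtBP gene Ctbp2 averaged 39.3 ± 4.11 CPM with doxycycline and 50.9 ± 4.16 CPM untreated (-0.38, SE 0.090, block adjusted p = 0.013; SD, n = 3 each). Its relative Ctbp1 did not pass in edgeR with the block but did in DESeq2, at 289.8 CPM with doxycycline and 236 CPM untreated (0.28, adjusted p = 0.057). The NuRD helicase genes Chd4 (-0.47) and Chd3 (-0.86) were the remaining ones that fell with the block, and Mta1 (0.32) and Zfpm1 (0.27), which encodes the GATA1 partner FOG1, rose.

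Among 17 tested other regulators of globin switching, 1 fell and none rose in edgeR without the block, where DESeq2 also called Tal1 higher. With the block 1 fell (5.88%) and 2 rose (11.8%). Igf2bp2, an RNA-binding protein of the fetal programme, fell in both fits at a low level, to 0.117 ± 0.0288 CPM with doxycycline, against 0.652 ± 0.172 CPM untreated (SD, n = 3 each; adjusted p = 0.019 without the block). Tal1, the erythroid core factor, averaged 424 ± 15.9 CPM with doxycycline and 295 ± 15.4 CPM untreated (SD, n = 3 each) and rose with the block (0.52, adjusted p = 0.0021; 0.068 without it), as did Atf4 (0.43, adjusted p = 0.011). Myb, Lin28b, Hic2 and Nr2c2, which act upstream of or beside Bcl11a, passed neither fit.

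The globin genes did not follow a single direction. Of 7 tested, Hbb-bh2 fell without the block in edgeR and DESeq2, and with the block 2 rose (Hba-a1 and Hbq1b) and 2 fell (Hbb-bs and Hbb-bh2). DESeq2 with the block did not call Hbb-bs (adjusted p = 0.087). Hbb-bh2 had little RNA, 0.226 CPM with doxycycline and 3.09 CPM untreated (log2 fold change -3.77, SE 0.56, edgeR adjusted p = 0.022 without the block). Hbq1b was also low, at 3.59 CPM with doxycycline and 1.43 CPM untreated. Hbq1a did not pass the filter on low counts, and how reads divide between Hbq1a and Hbq1b was not tested. The embryonic beta-like genes Hbb-y and Hbb-bh1, which BCL11A and SOX6 silence in adult cells, were under 1 CPM in both groups. Hbb-y averaged 0.349 CPM with doxycycline and 0.448 CPM untreated, and Hbb-bh1 0.255 CPM with doxycycline and 0.360 CPM untreated. Neither passed (block adjusted p of 0.39 and 0.24). Adult globin genes have near-identical copies, so counts of Hba-a1, Hbb-bs and Hbb-bt are uncertain.

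Genes that BACH1 and small MAF proteins repress were higher with the block in several cases. None of the 15 tested passed in edgeR without the block, where DESeq2 called Slc7a11 and Srxn1 higher. With the block 7 rose (46.7%) and none fell, with a median log2 fold change of 0.31. Slc7a11, the cystine transporter, averaged 55.2 ± 20.9 CPM with doxycycline and 25.7 ± 4.19 CPM untreated (1.05, SE 0.14, block adjusted p = 4.3e-04). Srxn1, sulfiredoxin, averaged 148 ± 15.0 CPM with doxycycline and 98.8 ± 6.89 CPM untreated (0.58, SE 0.089, block adjusted p = 0.0011; SD, n = 3 each). The others that rose were Osgin1 (1.32), Slc40a1, the iron exporter ferroportin (0.68), Blvrb (0.56), Gclc (0.46) and Nqo1 (0.31). Osgin1 was low, at 1.90 CPM with doxycycline and 0.730 CPM untreated, and its groups overlapped. Gclm was lower without passing, at 560 CPM with doxycycline and 669 CPM untreated (-0.26, edgeR block adjusted p = 0.069). Hmox1, the heme oxygenase gene that is the best known BACH1 target, stood at 33.9 CPM with doxycycline and 32.3 CPM untreated, and passed neither fit. Slc7a11 is also a target of ATF4.

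Genes that FOXO3 activates went both ways. Of 21 tested, 1 rose and 3 fell in edgeR without the block, where DESeq2 also called Gadd45a higher. With the block 3 rose (14.3%) and 5 fell (23.8%). Cat, catalase, averaged 56.0 ± 2.56 CPM with doxycycline and 227 ± 34.1 CPM untreated (log2 fold change -2.02, SE 0.15, adjusted p = 0.0030 without the block). Cited2 averaged 17.9 ± 2.26 CPM with doxycycline and 44.3 ± 2.68 CPM untreated (-1.31, SE 0.16, adjusted p = 0.014). Sesn3, a sestrin, had little RNA in both groups and fell (log2 fold change -1.97, SE 0.37, adjusted p = 0.043). Bcl2l11, a pro-apoptotic gene, was the one that rose in both fits, at 29.2 CPM with doxycycline and 13.5 CPM untreated, and Gadd45a rose in edgeR with the block, averaging 52.1 ± 17.6 CPM with doxycycline and 25.4 ± 5.18 CPM untreated (1.01, SE 0.11, block adjusted p = 1.1e-04). The median of the list was -0.07 with the block. Of 13 tested genes of the signalling that controls FOXO3, none passed in edgeR or DESeq2 without the block, and 5 rose (38.5%) and 2 fell (15.4%) with it, led by Pik3r1 (-0.47), Epor (0.43) and Ikbkb (-0.50).

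**Figure D4:**
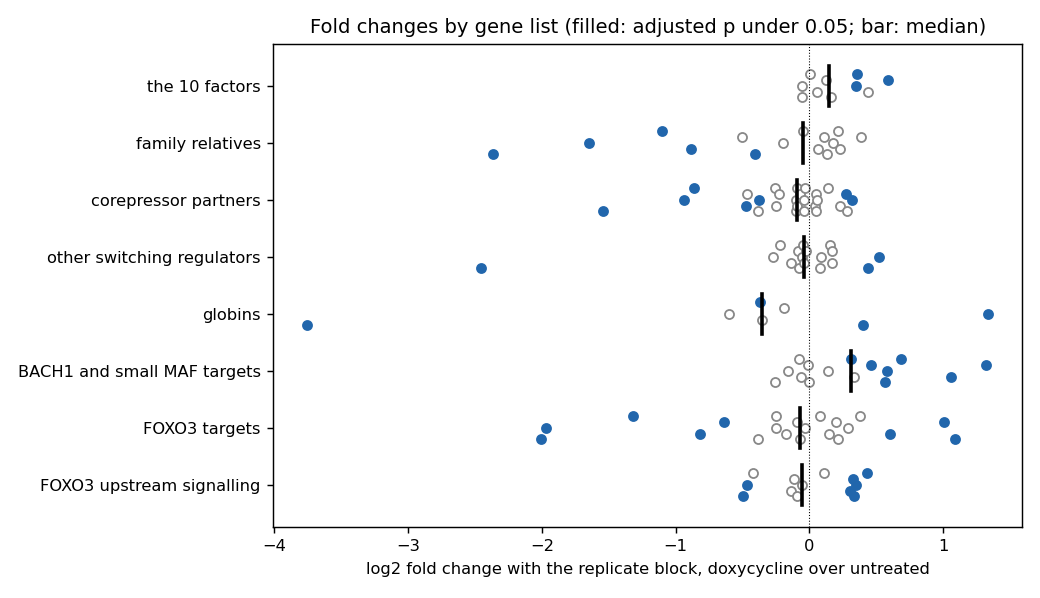
Log2 fold change with the replicate number as a block, doxycycline over untreated, for every tested gene of 8 lists, with filled points past an adjusted p of 0.05 and a black bar at the median. The 10 factors lie within a narrow range (-0.05 to 0.58). Every other list apart from FOXO3 upstream signalling holds genes that lie further from 0.

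Markers of maturing red cells and of other lineages also differed between the groups, and their part in the values of the 10 factors was not tested. Of 10 erythroid markers, none passed in edgeR without the block, where DESeq2 called 2 higher. With the block 7 rose, among them Slc4a1, which encodes band 3 (1.15), and Tal1, and 1 fell, Hbb-bs. DESeq2 with the block called 7 higher and 0 lower. Neutrophil and monocyte markers summed to 0.933 to 12.1 CPM in doxycycline libraries and 4.21 to 48.1 CPM in untreated ones, and 11 of 15 in the table averaged under 1 CPM. S100a9, S100a8 and Ngp were highest in untreated library 2, at 14.9, 11.3 and 9.01 CPM. They stood at 3.34, 2.68 and 1.98 CPM in untreated library 3 and at 3.27, 2.58 and 1.98 CPM in doxycycline library 3. In number 1 they were at most 0.0340 CPM in both groups. With the block 3 of 9 tested fell, Lyz2, Cd14 and Prtn3. Cd14 and Prtn3 averaged under 1 CPM in both groups. DESeq2 with the block called 4 lower, with Ngp and S100a8 in place of Prtn3. B cell markers summed to 0.351 to 1.51 CPM with doxycycline and 0.476 to 5.88 CPM untreated, all 8 under 1 CPM on average, and none of 4 tested passed edgeR or DESeq2 in either fit. Ighm stood at 3.36 CPM in untreated library 2, against 0.0226 and 0.455 CPM in untreated libraries 1 and 3. T and NK cell markers summed to 5.03 to 7.44 CPM with doxycycline and 3.11 to 5.22 CPM untreated, with 6 of 7 under 1 CPM and Lck the main contributor. Lck and Cd3g, the 2 tested, rose with the block, where DESeq2 called Lck alone. Cd3g averaged 0.560 CPM with doxycycline and 0.264 CPM untreated, and its pair 3 hardly differed (log2 -0.01). Megakaryocyte markers summed to 48.4 to 162 CPM with doxycycline and 82.0 to 309 CPM untreated, and with the block 5 of 8 fell, among them Pf4 and Itga2b, and 1 rose. Mast cell and basophil markers summed to 292 to 470.5 CPM with doxycycline and 268 to 446 CPM untreated. Most of it was Gata2, which erythroid progenitors also express, and 6 of 9 markers averaged under 1 CPM. With the block 3 of 6 tested fell, Ms4a2, Cpa3 and Mcpt4. Cpa3 and Mcpt4 averaged under 1 CPM in both groups. Fcer1a averaged 27.4 CPM with doxycycline and 32.9 CPM untreated. It did not pass with the block (log2 fold change 0.18, edgeR adjusted p = 0.72), and its pairs pointed different ways. No marker in the table stayed at the smallest deposited value in every library.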

How the data were processed

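Libraries of poly(A) RNA were made, per the labels' protocols, with a TruSeq v2 kit, which does not mark strand. The authors deposited raw counts per gene symbol, 1 column per library, with no value below 1. Tools and builds named in the submitters' processing notes are STAR, DESeq2, bcl2fastq 2.17.1.14, GRCm38 and mm10. Which program counted the reads, on which annotation, was not stated in the sources used here. The labels call the libraries biological replicates without naming cultures, so p-values measure the spread between these samples, which may be technical.

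The fit was edgeR 4.0.16 (limma 3.58.1, R 4.3.3), quasi-likelihood F test, TMM, filterByExpr, two-sided. Fold changes put doxycycline over untreated; the SE was taken as the absolute log2 value over root F, and 95% intervals use the fit's t quantile. Libraries of equal number were taken as pairs because their deviations from group means correlated over 9301 genes of at least 5 CPM (0.86, 0.89 and 0.78 for numbers 1, 2 and 3). Residual degrees of freedom were 2 with the block and 4 without, and the block lowered the common biological coefficient of variation to 11.3%, against 28.6% without it. DESeq2 1.42.0 and the other settings named in the closing section were alternatives. The script was tested on simulated counts. Exon lengths, positions and overlaps come from GENCODE M21 (GRCm38). The 10 factors and the lists of other genes, drawn from general knowledge, were chosen with earlier results of these data known. Named genes were the 10 factors, Spi1, up to 3 genes per list and fit with the smallest adjusted p, and 3 genes nearest in pattern to each of 3 factors. Other genes named, such as Klf1, Nfe2, Ctbp1, Hmox1, Hbb-y, Hbb-bh1 and remaining block calls, were picked for their role or after their values were seen. Listed symbols absent from the table were not analysed here. One erythroid marker that the naming rule picks is not reported here by name.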

Additional observations from a re-analysis of the deposited data

How the results depend on the processing

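The log2 fold changes of the 10 factors were recomputed under 16 alternatives, 160 values in all. Since no factor passed the group-only fit, no called value could be lost or turned round. Of the 160, 18 passed the threshold and 142 did not. Without the block, the count of factors called stayed at 0 with RLE factors, no filter on low counts, 1 taken off each value, and each single library left out. It was 3 with the replicate number as a block, 1 by DESeq2, and 4 when DESeq2 also had the block, all higher. Settings added after the data were seen gave 3 with the block and 1 taken off each value, and 1, 3 and 3 with the block when both libraries of number 1, 2 or 3 were left out; the call common to these was Klf3. Over all genes, 59 were higher and 308 lower with doxycycline without the block. These counts were 1452 and 2206 with the block, 294 and 636 by DESeq2, and 1736 and 1660 when DESeq2 also had the block. Leaving out 1 library gave between 0 and 26 higher and between 35 and 242 lower. For Klf3 the log2 fold change lay between 0.51 and 0.66 over all alternatives, for Bach1 between 0.29 and 0.47 and for Foxo3 between 0.19 and 0.55. The sign for Bcl11a, Zbtb7a, Nfix, Mafk and Mafg differed between alternatives. Over all genes the median log2 fold change was 0.01 with TMM factors and 0.03 with RLE factors in edgeR, and 0.07 by DESeq2, which differs in more than scaling. Depth limits little here, since the smallest count of any factor in a library was 1097 (Sox6).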
